A study of Mus musculus with 12 samples.

Results

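The genes described here encode the cornified envelope, the protein shell of the outermost cells of the epidermis, and were followed through 12 mouse angiosarcoma tumors. Members were taken by gene name from the deposited count table. They were the genes whose name starts with Sprr or with Lce and a digit, together with Flg, Flg2, Hrnr, Rptn, Lor, Ivl, Crnn, Tgm1, Tgm3 and Tgm5, with pseudogenes left out. This gave 46 of 54232 genes, of which 43 had at least 1 count in the 12 libraries. The rule goes by name, and the group was chosen for description with earlier results of these data known.

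The cornified envelope forms beneath the plasma membrane of keratinocytes as they differentiate and die at the skin surface. Involucrin (Ivl) is laid down early as a scaffold, loricrin (Lor) later makes up much of the envelope, small proline-rich proteins (SPRR) act as cross-bridges, and late cornified envelope proteins (LCE) are added in the uppermost layers. Transglutaminases link these proteins to each other, and filaggrin and its relatives, the fused S100 type proteins, bundle keratin filaments and serve the barrier. Most of these genes lie side by side in the epidermal differentiation complex, and members of the SPRR family are known to be induced in wounded or stressed epidermis.

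SVR cells, a Ras-transformed mouse endothelial line used as a model of angiosarcoma, were grown as xenografts in nude mice, and the strain label of each sample reads C57BL/6. Mice received daily gavage of vehicle (control), of the MEK inhibitor trametinib at 1 mg/kg, of the VEGF receptor inhibitor cediranib at 3 mg/kg, or of both drugs (combination), with 3 tumors sequenced for each treatment. RNA came from lysate of the whole tumor, tumor cells and host cells are both of mouse origin, and the study injected the cells under the skin, so that transcripts of tumor, stroma and adjacent skin were counted together. The sources used here do not say which of the study's treatment experiments supplied these tumors, and time on treatment may have differed between groups. Nothing in the labels says which mouse each tumor came from, so p-values measure the spread between these tumors.

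Libraries held 9478865 to 11666094 counts. Levels are given as CPM, the counts of a gene per total of its library scaled to the same size with TMM factors, and 3 counts, the most that a reading of 0 leaves possible, corresponded to 0.251 to 0.349 CPM. Of the 46 genes 30 were among the 12897 genes that passed the filter on low counts. A gene that was near 0 in most groups passed only through the group where it was high and therefore had to differ, so counts and medians over these 30 genes describe them and are not support for a difference. All 10 endothelial markers of a list had counts in control and cediranib treated tumors, with a summed level of 126 to 417 CPM there, and trametinib or combination treated tumors had 34.2 to 109 CPM with at most 2 markers at 0. Of 11 ERK target genes, the readout of MEK activity, 8 were called lower in trametinib treated and 8 in combination treated tumors compared to control, and 0 in cediranib treated tumors. Of all genes tested 1.43%, 1.71% and 0% were called lower in these comparisons.

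The tumors of a treatment differed strongly in their content of epidermal transcripts, which touches every result below. The summed level of the basal keratins Krt5, Krt14 and Krt15, the keratins of dividing epidermal cells, was 529.9, 3.65 and 2.83 CPM in the control tumors. After trametinib it was 6.17, 3.72 and 0.502 CPM. It was 2675, 4.82 and 1556 CPM in the cediranib treated tumors and 2706, 3971 and 2832 CPM in the combination treated tumors. Control replicate 1 thus stood apart from the other controls, and cediranib replicate 2 from the other cediranib treated tumors. All 3 basal keratins had counts in 10 of the 12 tumors, and Krt15 was at 0 in trametinib replicates 2 and 3. In bulk RNA, fewer cells of a type and less RNA per cell cannot be told apart. The part of skin content in the differences between treatments was not tested.

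In the deposited coordinates (GRCm38) 43 of the 46 genes lay on mouse chromosome 3 between positions 92080271 and 93399442, a span of 1.32 Mb, and the 3 transglutaminases lay on chromosomes 2 and 14. Lor (ENSMUSG00000043165, chr3:92080271-92083142) and Ivl (ENSMUSG00000049128, chr3:92570902-92573735) are single-copy genes, and none of Lor's and 0.482% of Ivl's annotated transcript windows of 50 bases occurred in another gene of GENCODE M21. The SPRR2 and LCE genes are families of close copies. The share of 50-base windows found in another gene was 96.3% for Sprr2a1, 96.5% for Sprr2a2, 14.1% for Sprr2b, 17.8% for Lce1g, 19.9% for Lce1a1 and 48.0% for Lce3f, and 0% for Sprr1a, Sprr1b, Sprr2g and Sprr2h. The rule for counting reads that match several genes was not stated in the sources used here, and levels of the single LCE genes and of Sprr2a1, Sprr2a2 and Sprr2a3 are uncertain. Tgm1 overlaps a gene on the opposite strand, Gm49067, and reads of both may be mixed where strand was not used. Sprr2g is annotated as a polymorphic pseudogene in GENCODE M21 and was kept by its name.

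The windows from 250 bases before to 50 bases after the start of 44 of the 46 genes were found in RefSeq (GRCm38.p6), and the genes without one were Sprr2g and Lce1f. They were searched on both strands for the letters TGANTCA, which AP-1 factors bind, and for TATAAA, the box that positions many transcription starts. TGANTCA occurred in 15 of the 44 windows, 34.1%, against 7.81% of 32817 promoter windows of the same length, and TATAAA in 21, 47.7%, against 13.6%. CACCC, the letters of KLF sites, occurred in 52.3% against 57.5%, and GGAAGT, of ETS sites, in 27.3% against 23.8%. The windows holding TGANTCA were those of Ivl, Lor, Sprr1a, Sprr1b, 7 SPRR2 genes, Flg, Flg2, Rptn and Crnn, and 0 of the LCE windows held it. A match is a description and not a site of binding, and its absence says only that the letters are not in the window.

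Windows are shown for the genes on which the results turn, with matches to TGANTCA and TATAAA in capitals. Ivl, Sprr1a and Lor had counts also in tumors with almost no keratin, Sprr2h stands for the SPRR2 family, and Lce1a1 and Lce1g for the LCE genes. The windows lie at chr3:92573686-92573985 for Ivl, chr3:92485832-92486131 for Sprr1a, chr3:92083093-92083392 for Lor, chr3:92385435-92385734 for Sprr2h, chr3:92648258-92648557 for Lce1a1 and chr3:92752289-92752588 for Lce1g. All but that of Sprr2h are on the minus strand, and each is written in the direction of transcription.
Ivl: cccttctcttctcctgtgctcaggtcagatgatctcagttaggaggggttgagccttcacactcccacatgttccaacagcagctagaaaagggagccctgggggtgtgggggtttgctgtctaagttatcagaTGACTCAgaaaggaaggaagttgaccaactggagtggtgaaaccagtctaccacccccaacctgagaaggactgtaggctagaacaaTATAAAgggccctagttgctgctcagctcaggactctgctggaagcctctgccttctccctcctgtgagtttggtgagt
Sprr1a: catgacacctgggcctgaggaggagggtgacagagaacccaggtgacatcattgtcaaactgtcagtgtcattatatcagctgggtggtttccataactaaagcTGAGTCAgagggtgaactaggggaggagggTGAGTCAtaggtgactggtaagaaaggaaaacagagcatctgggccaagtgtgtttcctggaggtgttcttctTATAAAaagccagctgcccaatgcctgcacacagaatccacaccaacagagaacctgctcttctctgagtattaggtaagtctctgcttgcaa
Lor: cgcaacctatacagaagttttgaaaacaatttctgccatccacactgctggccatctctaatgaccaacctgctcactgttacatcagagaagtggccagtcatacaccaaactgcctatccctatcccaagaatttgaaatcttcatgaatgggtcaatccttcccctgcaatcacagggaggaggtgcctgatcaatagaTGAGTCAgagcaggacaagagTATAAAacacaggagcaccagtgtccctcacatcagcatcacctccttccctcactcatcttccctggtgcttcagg
Sprr2h: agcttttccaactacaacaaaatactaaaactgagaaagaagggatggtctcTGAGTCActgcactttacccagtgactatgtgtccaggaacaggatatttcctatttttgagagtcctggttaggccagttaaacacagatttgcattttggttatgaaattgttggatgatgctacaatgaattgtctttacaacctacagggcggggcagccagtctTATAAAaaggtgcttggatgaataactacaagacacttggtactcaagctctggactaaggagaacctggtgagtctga
Lce1a1: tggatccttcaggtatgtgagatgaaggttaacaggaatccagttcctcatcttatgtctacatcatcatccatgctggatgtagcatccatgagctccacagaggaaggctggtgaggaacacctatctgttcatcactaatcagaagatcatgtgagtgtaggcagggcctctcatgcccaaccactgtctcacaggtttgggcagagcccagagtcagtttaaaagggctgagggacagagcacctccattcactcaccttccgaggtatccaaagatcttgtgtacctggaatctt
Lce1g: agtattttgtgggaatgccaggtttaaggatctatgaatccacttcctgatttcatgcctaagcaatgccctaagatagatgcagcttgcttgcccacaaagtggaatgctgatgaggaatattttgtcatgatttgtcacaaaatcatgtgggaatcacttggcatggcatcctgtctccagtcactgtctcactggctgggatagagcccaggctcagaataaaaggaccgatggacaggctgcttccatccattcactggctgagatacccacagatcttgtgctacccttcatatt
Counted from the start of transcription, the first TGANTCA base was at -116 in Ivl, at -146 and again at -116 in Sprr1a, at -48 in Lor and at -198 in Sprr2h. The first base of TATAAA was at -29 in Ivl, -43 in Sprr1a, -27 in Lor and -29 in Sprr2h. The windows of Lce1a1 and Lce1g held neither.

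Across the 12 tumors the 46 genes together made up 47.9 to 68.7 CPM in the controls, 11.7 to 28.8 CPM in trametinib treated, 76.1 to 262 CPM in cediranib treated and 228 to 468 CPM in combination treated tumors. The means were 60.6 ± 11.2, 17.8 ± 9.49, 168 ± 93.0 and 318 ± 131 CPM (SD, n = 3 each). All trametinib treated tumors were below all controls and all controls below all cediranib treated tumors, of which replicate 2, at 76.1 CPM, lay close to the controls. Cediranib and combination treated tumors overlapped. The number of the 46 genes with a count was 4 to 10 in trametinib treated tumors, 25, 9 and 9 in control, 40, 11 and 37 in cediranib treated and 38 to 41 in combination treated tumors.

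**Figure D1:**
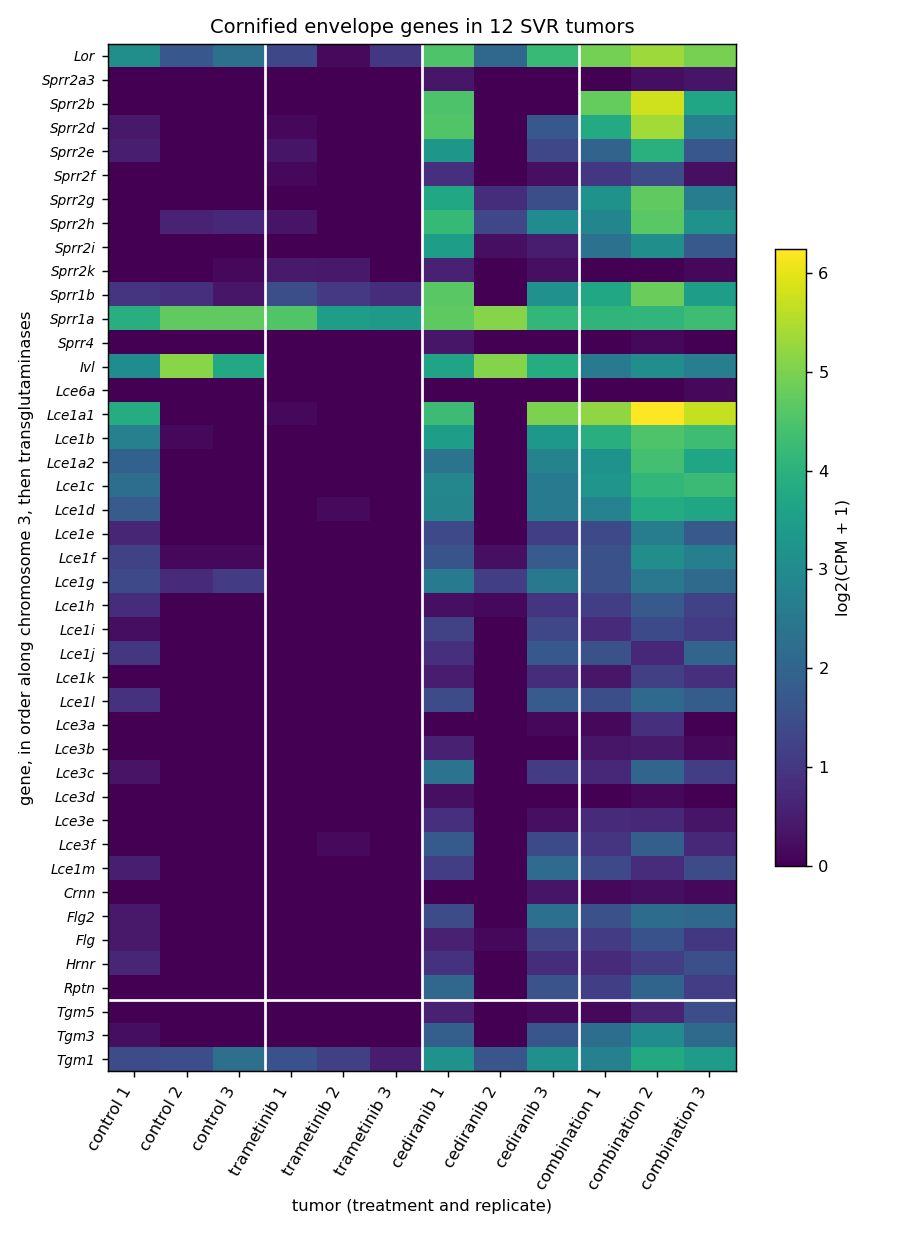
Level of the 43 genes with a count (rows, log2 of CPM plus 1, color) in each tumor (columns, 3 per treatment), with the genes of chromosome 3 in their order along it and the transglutaminases last. At least 1 CPM was reached by 27 of the 43 genes in each of cediranib replicates 1 and 3, by 28 to 31 in the combination treated tumors, by 12 in control replicate 1 and by 2 to 6 in the other 6 tumors, among them Sprr1a in all 12 tumors and Ivl in all but the trametinib treated ones.

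Similar sums hid a different make-up. Sprr1a and Ivl together were 90.4% and 78.9% of the sum in control replicates 2 and 3, 76.8% to 81.4% in trametinib treated tumors and 87.6% in cediranib replicate 2. They were 30.7% in control replicate 1, 13.8% and 18.1% in cediranib replicates 1 and 3 and 4.98% to 9.40% in combination treated tumors. In the 6 tumors with over 500 CPM of basal keratins the other 44 genes therefore made up most of the sum, and in the 6 tumors with under 10 CPM the pair Sprr1a and Ivl did.

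**Figure D2:**
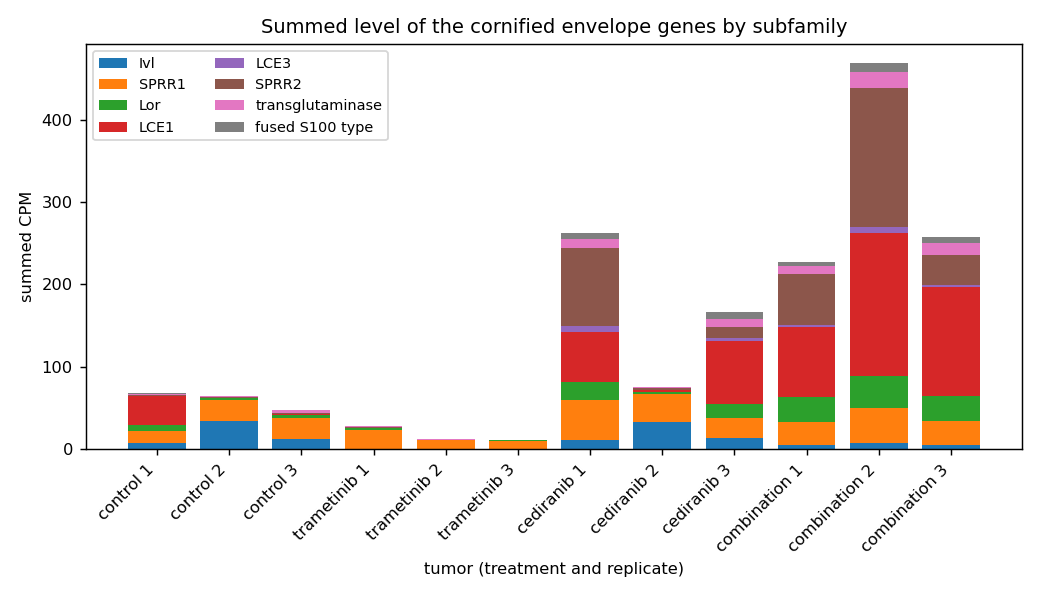
Summed CPM of the members in each tumor (bars from 0, 3 tumors per treatment), split into Ivl, SPRR1, Lor, LCE1, LCE3, SPRR2, transglutaminase and fused S100 type genes (colors). LCE1 and SPRR2 fill most of the bars of the combination treated tumors, Ivl and SPRR1 most of those of control replicates 2 and 3 and cediranib replicate 2, and control replicate 1 has LCE1 with almost no SPRR2.

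**Figure D3:**
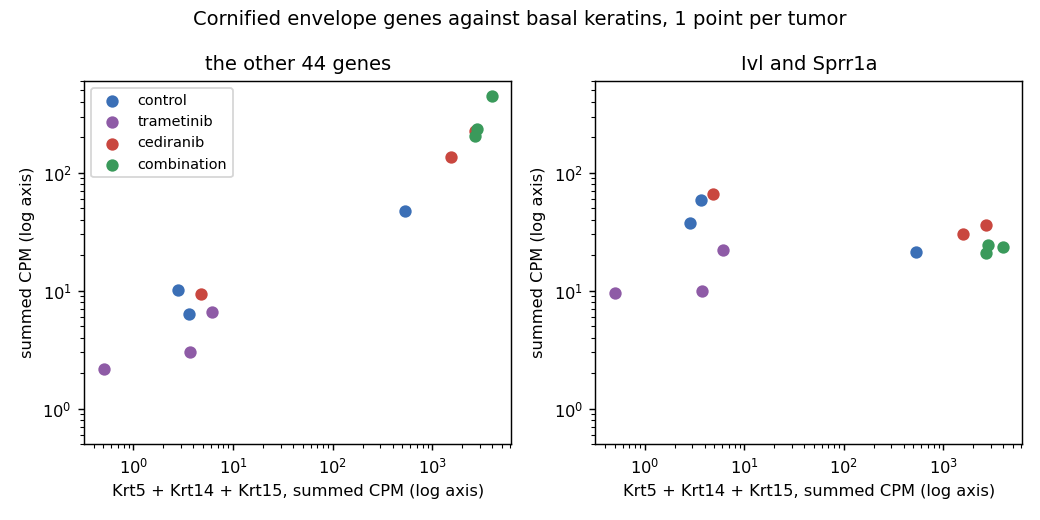
Summed CPM of the members without Ivl and Sprr1a (left) and of Ivl and Sprr1a (right) against the summed CPM of Krt5, Krt14 and Krt15, both on log axes, with 1 point per tumor colored by treatment. On the left the 6 tumors with over 500 CPM of keratin lie between 47.6 and 445 CPM and the other 6 between 2.18 and 10.1 CPM, and on the right the 2 sets of tumors overlap.

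Involucrin was present in every tumor that had not received trametinib alone and at 0 in all that had. Ivl was 7.15, 33.9 and 12.6 CPM in control tumors, 0 CPM in each of the 3 trametinib treated tumors, 11.6, 33.0 and 13.6 CPM in cediranib treated tumors and 4.85, 7.26 and 5.38 CPM in combination treated tumors. The trametinib group was below every other tumor, and control and cediranib treated tumors overlapped. Against 3 counts over the group, Ivl was at least 181-fold lower in trametinib treated than in control tumors (edgeR quasi-likelihood test, Benjamini-Hochberg adjusted p = 0.00121) and at least 206-fold lower than in cediranib treated tumors (adjusted p = 0.000939). Both calls held when any 1 library was left out. Control replicates 2 and 3 and cediranib replicate 2, which held 12.6 to 33.9 CPM of Ivl, had 2.83 to 4.82 CPM of basal keratins, and the trametinib treated tumors had 6.17, 3.72 and 0.502 CPM of them. The part of this content in the difference was not tested.

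In combination treated tumors Ivl was intermediate. It was at least 61.7-fold higher than with trametinib alone (adjusted p = 0.0249, edgeR), a call that was lost whichever library was left out (adjusted p 0.0606 to 0.0831). Compared to cediranib it was lower in all 3 combination treated tumors, by a log2 fold change of -1.73 (SE 0.57), and compared to control by -1.61 (SE 0.57) with overlapping values. Neither of these passed the test (adjusted p = 0.0997 and 0.104, edgeR), and without control replicate 1 the difference from control was called at -1.997 (adjusted p = 0.0432). The summed level of the 11 ERK target genes ran in the same order over treatments, with 274 to 390 CPM in trametinib treated, 470 to 743 CPM in combination treated and 1038 to 1211 CPM in the other 6 tumors, and its relation to Ivl was not tested.

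Sprr1a (ENSMUSG00000050359, chr3:92483952-92485895), a cross-bridging small proline-rich protein, had counts in all 12 tumors and had the highest mean level of the 46 genes. It was 13.97, 25.03 and 25.15 CPM in the controls, 22.2, 10.0 and 9.54 CPM in trametinib treated, 24.7, 33.7 and 16.7 CPM in cediranib treated and 15.96, 16.07 and 18.84 CPM in combination treated tumors. All 4 groups overlapped, and 0 of 7 comparisons called it by edgeR's quasi-likelihood or likelihood ratio test or by DESeq2, with log2 fold changes against control of -0.61 for trametinib, 0.23 for cediranib and -0.33 for the combination (SE 0.35 each). Its level was of the same size in tumors with and without keratins, and cediranib replicate 2, with 4.82 CPM of basal keratins, had its highest value. Sprr1a lies near Ivl in the cluster, and the windows of both genes held matches to TGANTCA and TATAAA. The relation of position or matches to the levels of either gene was not tested.

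**Figure D4:**
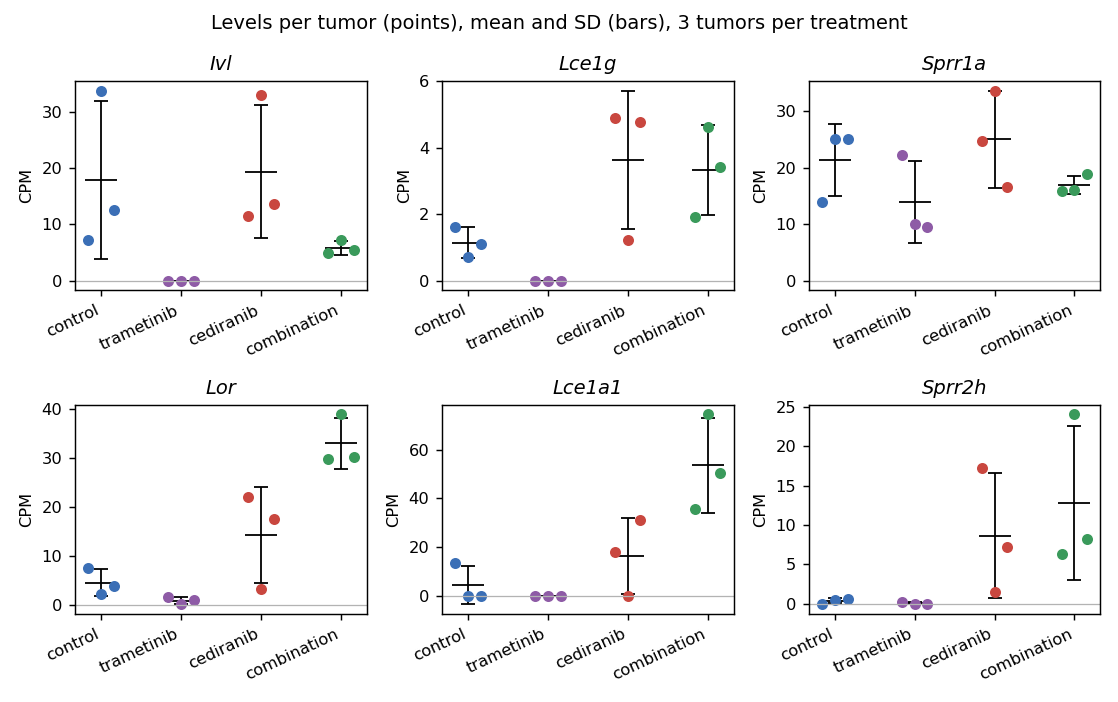
CPM of 6 genes in each tumor (points) with the mean and SD of each treatment (bars, n = 3), for Ivl, Lce1g, Sprr1a, Lor, Lce1a1 and Sprr2h. Ivl and Lce1g are at 0 in all trametinib treated tumors, Sprr1a overlaps across the 4 treatments, and Lor is highest in the 3 combination treated tumors.

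Loricrin had counts in all 12 tumors and was lowest with trametinib and highest with the combination. Lor was 7.49, 2.23 and 3.94 CPM in the controls, 1.54, 0.116 and 1.00 CPM in trametinib treated, 22.1, 3.22 and 17.4 CPM in cediranib treated and 29.8, 38.9 and 30.1 CPM in combination treated tumors. The trametinib treated tumors were below all others, the combination treated tumors were above all others, and control and cediranib treated tumors overlapped. The combination exceeded control by a log2 fold change of 2.84 (SE 0.65, adjusted p = 0.0199, edgeR quasi-likelihood test) and trametinib by 5.13 (SE 0.77, adjusted p = 0.0196), and trametinib was below cediranib by -3.92 (SE 0.75, adjusted p = 0.00831). The difference of trametinib from control, -2.29 (SE 0.76), and that of the combination from cediranib, 1.21 (SE 0.60), did not pass (adjusted p = 0.101 and 0.258, edgeR). The call against control was lost without control replicate 2 or 3 or combination replicate 2, and that against trametinib without any library but combination replicate 1.

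The SPRR2 genes, cross-bridging proteins of which Sprr2h (ENSMUSG00000046259, chr3:92385685-92387100) is one, were almost absent from control and trametinib treated tumors. Their summed level over 11 genes was 0.766, 0.507 and 0.707 CPM in the controls, 1.09, 0.349 and 0 CPM in trametinib treated, 94.1, 2.46 and 13.6 CPM in cediranib treated and 61.8, 168 and 35.8 CPM in combination treated tumors. All 6 cediranib and combination treated tumors were therefore above all 6 of the others, cediranib replicate 2 by the smallest margin. Within the family, Sprr2b, Sprr2d, Sprr2h and Sprr2g had the highest mean levels, Sprr2a1 and Sprr2a2 were at 0 throughout, and Sprr2a3, Sprr2f and Sprr2k stayed at or below 1.72 CPM.

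Sprr2h was 0, 0.507 and 0.606 CPM in the controls, 0.272, 0 and 0 CPM in trametinib treated, 17.2, 1.51 and 7.18 CPM in cediranib treated and 6.26, 24.1 and 8.17 CPM in combination treated tumors. Neither the control nor the trametinib group overlapped with the cediranib or combination group. The combination exceeded control by a log2 fold change of 5.13 (SE 1.05, adjusted p = 0.0120, edgeR), which held without any 1 library (adjusted p 0.0215 to 0.0426), the only call of this comparison that did. Compared to cediranib alone the value was 0.58 (SE 0.77) and did not pass. Cediranib exceeded control by 4.55 (SE 1.05), with an adjusted p of 0.999 over all genes tested, and Sprr2g, Sprr2h and Sprr2i were the 3 genes of the 46 whose cediranib treated tumors were all above the controls, where 4.31% of genes tested had all values higher, and in 0 of the 46 all were below, where 3.45% had all values lower.

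Sprr2d was called higher in combination treated tumors than in control (log2 fold change 7.16, SE 1.72, adjusted p = 0.0240, edgeR). Sprr2g, at 0 in all control and trametinib treated tumors, was at least 138-fold higher than control (adjusted p = 0.0211, edgeR). Sprr2b was at 0 in those 6 tumors and in cediranib replicates 2 and 3, was 21.5 CPM in cediranib replicate 1 and 26.4, 54.0 and 11.7 CPM in combination treated tumors, and did not pass against control (adjusted p = 0.0580, edgeR). Per kb of transcript the mean in combination treated tumors was 39.1 CPM for Sprr2b, 28.8 for Sprr2d, 19.8 for Sprr2g and 17.1 for Sprr2h, and capture probes may also set such an order.

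Sprr1b (ENSMUSG00000048455), the other SPRR1 gene, had levels nearer to those of the SPRR2 genes than to those of Sprr1a. It was 0.937, 0.811 and 0.303 CPM in the controls, 1.82, 1.05 and 0.753 CPM in trametinib treated, 23.9, 0 and 7.85 CPM in cediranib treated and 12.4, 27.0 and 10.3 CPM in combination treated tumors. All combination treated tumors were above all control and trametinib treated ones, and the cediranib group spanned both. The difference of the combination from control was called (4.56, SE 1.18, adjusted p = 0.0322, edgeR) and was lost whichever library was left out (adjusted p 0.0520 to 0.120). Of the remaining SPRR genes Sprr3 was at 0 throughout and Sprr4 reached at most 0.300 CPM.

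The LCE1 genes, the LCE group of normal skin surface, were high in the 6 tumors with keratins and close to 0 in the others. The summed level of the 14 LCE1 genes was 35.0, 0.912 and 1.21 CPM in the controls, 0.0908, 0.116 and 0 CPM in trametinib treated, 59.6, 1.51 and 76.2 CPM in cediranib treated and 85.5, 173 and 133 CPM in combination treated tumors. Lce1a1 (ENSMUSG00000057609), the highest of them, was 13.6 CPM in control replicate 1, 18.3 and 31.1 CPM in cediranib replicates 1 and 3, 35.7, 74.4 and 50.4 CPM in combination treated tumors and at most 0.0908 CPM in the other 6. Per kb of transcript its mean in combination treated tumors, 75.9 CPM, was the highest of the 46 genes. Lce1b and Lce1c followed the same tumors, with 5.54 and 3.75 CPM in control replicate 1, 8.995 to 10.3 and 5.07 to 6.39 CPM in cediranib replicates 1 and 3 and 14.2 to 22.0 and 8.58 to 18.1 CPM in combination treated tumors. For the combination against control edgeR's quasi-likelihood test called 0 of the 13 LCE1 genes tested, with Lce1a1 at 3.52 (SE 1.41, adjusted p = 0.130), and without control replicate 1 it called 8. At an unadjusted p under 0.05 there were 11 of the 13, where 27.2% of all genes tested were. DESeq2 called 2 higher (Lce1e and Lce1f), where it called 2.59% of all genes, and edgeR's likelihood ratio test 3 (these and Lce1i), where it called 2.93%.

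Lce1g (ENSMUSG00000027919, chr3:92750148-92752338) differed from the rest of its group. It was 1.62, 0.709 and 1.11 CPM in the controls, 0 CPM in all 3 trametinib treated, 4.90, 1.23 and 4.78 CPM in cediranib treated and 1.92, 4.63 and 3.43 CPM in combination treated tumors. Like Ivl it was therefore above 0 in every tumor outside the trametinib group, also in the 3 of them with under 5 CPM of basal keratins, where most other LCE1 genes were at 0. Against 3 counts over the group it was at least 12.4-fold lower in trametinib treated than in control tumors (adjusted p = 0.0125, edgeR), at least 38.0-fold lower than with cediranib (adjusted p = 0.00212) and at least 35.5-fold lower than with the combination (adjusted p = 0.0196). The first of these calls and the second held without any 1 library, and the third held only without combination replicate 1. Lce1f showed the same sides at lower levels, with 1.36, 0.101 and 0.101 CPM in the controls against 0 CPM in each trametinib treated tumor. The quasi-likelihood test called it only for trametinib below cediranib (at least 16.6-fold, adjusted p = 0.0488, edgeR). That call was lost in 5 of the 6 fits without 1 library (adjusted p up to 0.120).

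The LCE3 genes, which are known from wounded and inflamed skin, were sparse. Their sum over 6 genes was 0.255 CPM or less in control and trametinib treated tumors, 8.09, 0 and 3.06 CPM in cediranib treated and 2.63, 7.72 and 2.23 CPM in combination treated tumors. Lce3f was at 0 in control, was called higher in the combination by at least 15.2-fold (adjusted p = 0.0484, edgeR), and lost the call whichever library was left out. Lce6a had 1 count in all.

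Both gene groups can be set against the suprabasal keratins Krt1 and Krt10, which mark the cells that make the envelope. In the 6 tumors with over 500 CPM of basal keratins, Krt1 and Krt10 together were 51.5 CPM in control replicate 1, 52.8 and 77.6 CPM in cediranib replicates 1 and 3 and 121, 231 and 171 CPM in combination treated tumors. Per 100 CPM of Krt1 and Krt10, LCE1 was 67.9 in control replicate 1, 113 and 98.2 in the cediranib treated and 70.6, 75.0 and 77.6 in the combination treated tumors. SPRR2 was 1.49 in control replicate 1, 178 and 17.5 in cediranib treated and 51.0, 72.6 and 21.0 in combination treated tumors on the same scale. LCE1 thus stayed within a narrow range relative to suprabasal keratin, whereas SPRR2 ranged widely: control replicate 1 and cediranib replicate 1 had nearly equal Krt1 and Krt10, but 0.766 and 94.1 CPM of SPRR2. The wound-induced keratins Krt6a, Krt6b, Krt16 and Krt17 summed to 183 CPM in control replicate 1, 2475 and 1013 CPM in cediranib replicates 1 and 3 and 1477, 2559 and 1746 CPM in combination treated tumors, and were at most 5.57 CPM in the other 6. Only 1 control tumor had such keratins, so these ratios have no replicate in control.

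The transglutaminases lie outside the cluster and split by type. Tgm1 (ENSMUSG00000022218), the membrane-bound enzyme of the envelope, had counts in all 12 tumors, with 1.70, 1.82 and 3.94 CPM in the controls, 2.00, 1.28 and 0.419 CPM in trametinib treated, 8.19, 2.18 and 7.75 CPM in cediranib treated and 5.66, 12.7 and 9.65 CPM in combination treated tumors. Combination treated tumors were above all control and trametinib treated ones. The difference was called against trametinib (2.92, SE 0.61, adjusted p = 0.0475, edgeR), where leaving out any library lost it, and not against control (1.91, SE 0.57, adjusted p = 0.0534, edgeR). Trametinib was below cediranib by -2.29 (SE 0.61, adjusted p = 0.0378, edgeR).

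Tgm3 (ENSMUSG00000027401), the enzyme of hair follicle and upper epidermis, was 0.170, 0 and 0 CPM in the controls, 0 CPM in trametinib treated, 2.698, 0 and 2.20 CPM in cediranib treated and 3.74, 6.99 and 3.43 CPM in combination treated tumors. With 2 counts over the controls, the combination exceeded them 75.1 times, with a 95% counting interval of 20.4 to 625 (adjusted p = 0.0202, edgeR), and trametinib by at least 50.1-fold (adjusted p = 0.0491, edgeR). The first call was lost without control replicate 2 or 3 or combination replicate 2, and the second whichever library was left out. Tgm5 reached at most 1.76 CPM, in combination replicate 3. Of 5 other transglutaminases (Tgm2, Tgm4, Tgm6, Tgm7 and F13a1), which do not serve the envelope, 3 were tested. Of these, 0 were called in any comparison by edgeR's quasi-likelihood or likelihood ratio test or by DESeq2. At an unadjusted p under 0.05 there was 1 for the combination against control and 1 against trametinib. Of the 12897 genes tested, 3513 and 2309 were under 0.05 in these comparisons.

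Filaggrin and its relatives Flg2, Hrnr, Rptn and Crnn, fused S100 type proteins of the upper epidermis, were low throughout. Their sum was 1.28, 0 and 0 CPM in the controls, 0 CPM in all trametinib treated, 6.29, 0.0946 and 8.33 CPM in cediranib treated and 5.05, 9.99 and 7.52 CPM in combination treated tumors. The 3 tested, Flg, Flg2 and Rptn, were called in 0 comparisons by edgeR's quasi-likelihood test. All 3 were at an unadjusted p under 0.05 for the combination against control and against trametinib and for trametinib against cediranib. Of the 12897 genes tested, 3513, 2309 and 3183 were under 0.05 in these comparisons. The likelihood ratio test of edgeR called all 3 higher in the combination than in control and trametinib and lower in trametinib than in cediranib treated tumors, where it called 2.93%, 2.34% and 3.25% of all genes, and Rptn higher in cediranib treated tumors than in control. DESeq2 called all 3 higher in the combination than in trametinib and lower in trametinib than in cediranib treated tumors, where it called 1.96% and 2.74% of all genes, and Rptn higher in the combination than in control. Hrnr and Crnn were not tested.

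For trametinib against control, which asks what MEK inhibition alone does, 0 of the 46 genes were called higher and 2, Ivl and Lce1g, lower, where 0.977% and 1.43% of the genes tested were called in these directions. In 4 genes all trametinib treated tumors were below all controls (Lor, Ivl, Lce1f and Lce1g), where 12.9% of genes tested were. The median log2 fold change of the genes tested was -3.32, and -1.76 over 22 genes with 13 of them set to their bound and 8 at the floor in both groups left out, against 0.0057 over all genes tested. Control replicate 1 supplied most of the counts of the other LCE1 genes on the control side.

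For cediranib against control, which asks what VEGF receptor inhibition alone does, the quasi-likelihood test of edgeR called 0 of the 46 genes in either direction, as it did of all genes tested (0%). At an unadjusted p under 0.05 there were 17 of the 30 tested, where 4.32% of all genes were. DESeq2 called 2 higher and edgeR's likelihood ratio test 5, where they called 0.0543% and 0.093% of all genes. The median log2 fold change was 2.25 over the genes tested, with all 30 estimates above 0, against -0.0027 over all genes tested. With control replicate 1 high among the controls and cediranib replicate 2 low among the treated, the groups overlapped for most genes.

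For the combination against control, 7 genes were called higher (Tgm3, Lor, Sprr2d, Sprr2g, Sprr2h, Sprr1b and Lce3f) and 0 lower, where 1.91% and 1.71% of genes tested were called. In 34 of the 46 genes all combination treated tumors were above all controls, where 15.6% of genes tested were, and in 0 all were below, where 15.7% were. The median log2 fold change was 3.64 over the genes tested, with the same value when 5 genes were set to their bound, against 0.0015 over all genes tested. Leaving out control replicate 1 gave 13 calls and leaving out control replicate 2 or 3 gave 1, Sprr2h, while leaving out combination replicate 2 gave 2.

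For the combination against trametinib, which asks what cediranib adds, 6 genes were called higher (Tgm3, Lor, Sprr2h, Ivl, Lce1g and Tgm1) and 0 lower, where 0.535% and 0.14% of genes tested were called. Sprr2h had 3 counts over the trametinib treated tumors, and its ratio was 138 with a 95% counting interval of 46.8 to 671 (adjusted p = 0.0323, edgeR). In 36 of the 46 genes all combination treated tumors were above all trametinib treated ones, where 12.4% of genes tested were. The median log2 fold change was 7.82 over the genes tested, and 5.14 with 20 genes set to their bound, against -0.010 over all genes tested. Without combination replicate 1 there were 2 calls, Lce1g and Lor, and without any other 1 of the 6 libraries there were 0.

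For the combination against cediranib, which asks what trametinib adds, 0 of the 46 genes were called by edgeR's quasi-likelihood test, where 1.29% and 1.16% of genes tested were called higher and lower. Of the 30 tested 1, Ivl, had an unadjusted p under 0.05, where 23.1% of all genes had, and it was called lower by DESeq2 and by edgeR's likelihood ratio test, where they called 1.47% and 1.64% of all genes. In 8 genes (Tgm3, Lor and 6 LCE1 genes) all combination treated tumors were above all cediranib treated ones, and in 1, Ivl, all were below, where 14.1% and 14.3% of genes tested were. The median log2 fold change was 0.92 over the genes tested, against 0.0043 over all genes tested. Lor thus lay below control with trametinib alone and above cediranib when trametinib was added to it, and the test of that difference is 3.50 (SE 0.97, adjusted p = 0.543, edgeR), which did not pass.

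**Figure D5:**
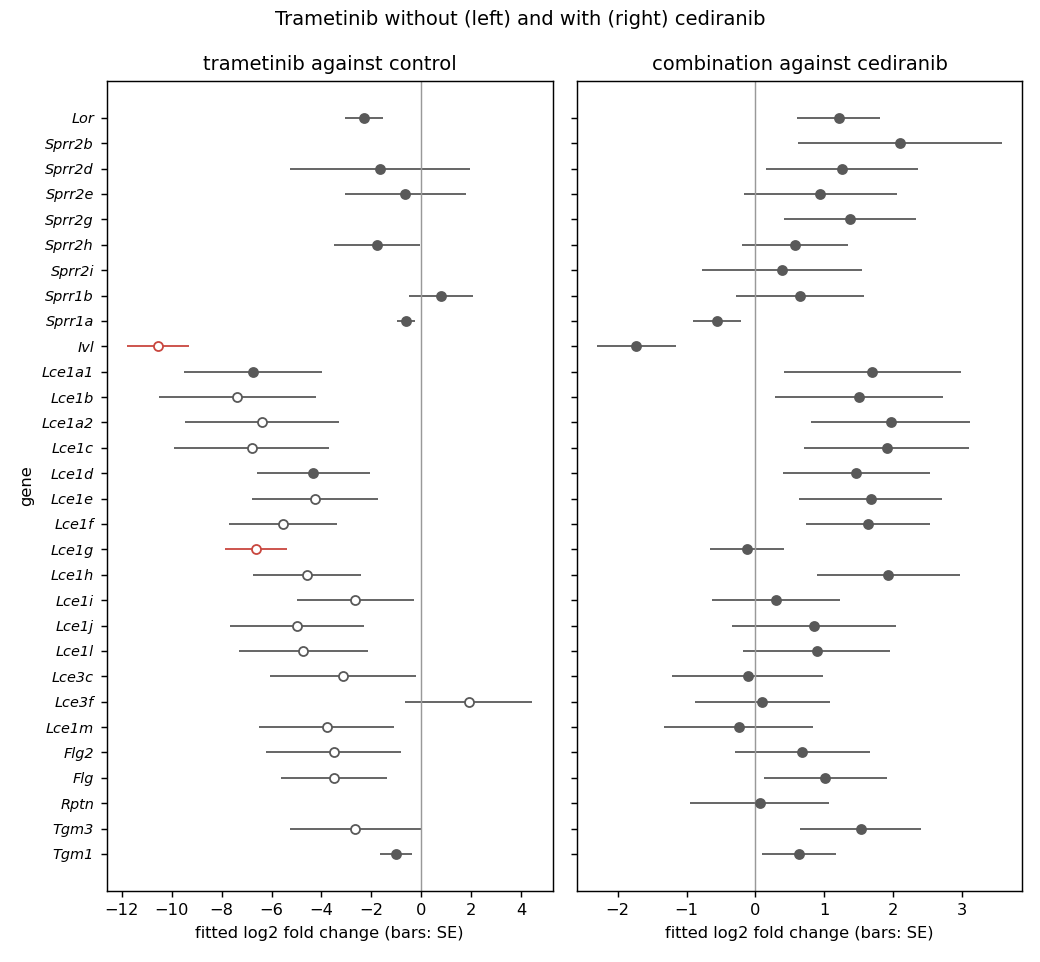
Fitted log2 fold change (points) with its SE (bars) for each gene tested, for trametinib against control (left) and the combination against cediranib (right), on axes of different range. Open points have a group in which all libraries are at 0, so that their fitted value is no bound, red marks a call, and genes at 0 in both groups are left out. On the left Ivl and Lce1g are called and most points are below 0, and on the right Ivl is the lowest and no point is called.

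For trametinib against cediranib, 9 genes were called lower (Tgm3, Lor, Sprr2d, Sprr2g, Sprr2h, Ivl, Lce1f, Lce1g and Tgm1) and 0 higher, where 1.97% and 1.52% of genes tested were called. In 10 genes all trametinib treated tumors were below all cediranib treated ones, where 13.9% of genes tested were. The median log2 fold change was -7.06 over the genes tested, and -4.23 with 20 genes set to their bound, against -0.0039 over all genes tested. Leaving out cediranib replicate 2 gave 26 calls, leaving out trametinib replicate 1 gave 5 and leaving out any of the other 4 libraries gave 4. Ivl, Lce1g, Lor and Sprr2h were called whichever library was left out. The 3 comparisons with trametinib treated tumors share these tumors, and those with control share the controls. The test of whether the effect of cediranib differed with and without trametinib called 0 of the 46 genes in either direction (0% of genes tested), with 10 of the 30 tested at an unadjusted p under 0.05, where 7.05% of all genes were, and a smallest adjusted p of 0.305, for Ivl, by edgeR's quasi-likelihood test. DESeq2 and edgeR's likelihood ratio test each called 2 higher, Ivl and Lce1g, where each called 0.178% of all genes.

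Other proteins of the envelope and of corneodesmosomes, the junctions of cornified cells, were counted from a list of 21 genes, of which 15 were tested. By edgeR's quasi-likelihood test 7 were called lower in trametinib than in cediranib treated tumors (Cnfn, Dsp, Evpl, Perp, Pkp1, Pkp3 and Sbsn), where 1.97% of all genes were. In combination treated tumors 5 were called higher than control (Ppl, Pkp3, Sbsn, Evpl and Dsg1b), 3 higher than trametinib (Dsp, Evpl and Pkp3) and 1, Ppl, higher than cediranib, where 1.91%, 0.535% and 1.29% of all genes were. For trametinib or cediranib alone against control 0 of them were called. Of all genes 0.977% were called higher and 1.43% lower with trametinib, and 0% in either direction with cediranib. At an unadjusted p under 0.05 there were 4 of the 15 with trametinib and 6 with cediranib, where 2665 and 557 of the 12897 genes tested were. Periplakin (Ppl), a plakin that anchors the envelope to keratin filaments, was 17.7, 11.4 and 3.84 CPM in the controls, 39.8, 29.7 and 32.9 CPM in trametinib treated, 27.8, 6.43 and 23.2 CPM in cediranib treated and 77.8, 83.9 and 67.8 CPM in combination treated tumors. It was called higher in the combination than in control (2.79, SE 0.52, adjusted p = 0.00845, edgeR) and than in cediranib treated tumors (2.00, SE 0.50, adjusted p = 0.0341, edgeR), and its value with trametinib alone was 1.63 (SE 0.51, adjusted p = 0.0822, edgeR). Ppl was above all controls in the trametinib treated tumors, a difference that did not pass the test. Of the 15 genes tested, 13 had an estimate below 0 for trametinib against control, with a median log2 fold change of -4.24. Ppl was among the 2 above 0. Of 21 other genes of the epidermal differentiation complex, mostly of the S100 family, 8 were tested and 1, S100a9, was called higher in the combination than in control by edgeR's quasi-likelihood test (1.91% of all genes), which called 0 of them in the other 6 comparisons.

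Of 15 regulators of epidermal differentiation 14 were tested. Compared to control, 6 were called higher in combination and 2 in trametinib treated tumors by edgeR's quasi-likelihood test, where 1.91% and 0.977% of all genes were, and 0 were called lower in either. The 2 were Klf4 and Hopx, the latter named after its values were seen, and both were also called higher in the combination than in cediranib and in trametinib than in cediranib treated tumors. The combination exceeded trametinib in 4 of the 14, where 0.535% of all genes were called, and trametinib was below cediranib in 4, where 1.97% were. Klf4, a transcription factor needed for barrier formation, was 30.5, 12.7 and 15.9 CPM in the controls, 73.1, 70.1 and 83.0 CPM in trametinib treated, 21.0, 13.5 and 26.1 CPM in cediranib treated and 60.5, 65.5 and 92.3 CPM in combination treated tumors. It rose by 1.93 (SE 0.32, adjusted p = 0.00400, edgeR) with trametinib and by 1.88 (SE 0.32, adjusted p = 0.00591) with the combination. Trametinib and combination treated tumors overlapped in Klf4, and its relation to Ivl was not tested. Over the 14 regulators tested, 4 estimates for trametinib against control were above 0 and 10 below, with a median log2 fold change of -1.04.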

How the data were processed

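RNA of 12 tumors, 3 per treatment, was sequenced after exome capture. The study chose this method because RNA degradation was relatively high in the tumors. The part of RNA quality in low counts and zeros was not tested. According to the study's methods and the processing notes of the submitters, the authors used bcl2fastq 1.8.4, mapped reads to GRCm38 with STAR 2.7.1a and summed them over genes with featureCounts 1.6.0. The deposited values are raw counts, without normalization. The sources used here give neither the annotation release nor the settings for strand and for reads that match several genes. Every column belonged to 1 of the 12 tumors, with 0 columns left over, and 0 libraries were identical. Samples were grouped by their treatment labels.

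After TMM scaling, counts were tested with the quasi-likelihood method of edgeR 4.0.16 (R 4.3.3) in 1 fit over all 12 libraries, after filterByExpr (minimum count 10, minimum total 15), which left 12897 of 29102 genes with a count. Genes were called where the p adjusted by Benjamini-Hochberg over all genes tested was at most 0.05 and the log2 fold change was 1.5 or more in size. The SE was the size of the log2 fold change over the square root of F. Folds against a group at 0 are bounds against 3 counts over the group, and with 1 to 3 counts the ratio has an exact binomial 95% interval. Bounds and intervals cover counting error alone, as reads carried no molecular identifiers. TMM factors ran from 0.908 to 1.10, and the biological coefficient of variation was 27.2%. Alternatives were DESeq2 1.42.0, edgeR's likelihood ratio test, other scalings, no filter, a replicate block, only the groups compared and leaving out each library.

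The members, gene lists and motifs were chosen with earlier results of these data known, and no list or member count is independent evidence. Named members were Lor, Ivl and Sprr2h, the 12 with the highest mean CPM, those called in any comparison and those whose call changed when a library was left out. From each list at most the 4 genes of highest mean CPM were to be named, and those named beyond that were chosen after their values were seen. Promoter windows are from RefSeq (GRCm38.p6), and overlaps and shared 50-base windows from GENCODE M21 transcripts. Protein sequences were not used here.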

Additional observations from a re-analysis of the deposited data

Results flagged for a closer look

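The estimated effect of trametinib on Lor ran in opposite directions without and with cediranib. Lor was flagged because its values lay apart in this way, so that separation is no support for a difference. Every trametinib treated tumor was below every control (log2 fold change -2.29), where 12.9% of genes tested had all values lower. Every combination treated tumor was above every cediranib treated tumor (1.21), where 14.1% had all values higher. Neither of these differences passed the test. The test of whether the effect of trametinib differed with cediranib, 3.50 (SE 0.97), had an adjusted p of 0.543 over all genes tested (edgeR quasi-likelihood test, Benjamini-Hochberg) and did not pass. Lor was 7.49, 2.23 and 3.94 CPM in control tumors, with the highest value in replicate 1, which held 529.9 CPM of basal keratins, and 3.22 CPM in cediranib replicate 2, which held 4.82 CPM. The part of these keratin contents in the difference was not tested.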

How the results depend on the processing

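The replicate numbers of the labels did not pair the tumors: of 18 same-numbered pairs 3 correlated over 0.1 (-0.219 to 0.356). Each count of calls among the 46 genes is followed by the share of all genes called in that direction in the same fit. With a replicate block the calls were 3 higher (0.341%) for the combination against trametinib, 1 lower, Ivl (1.04%), for the combination against cediranib and 4 lower (1.67%) for trametinib against cediranib. Without the filter on low counts, with 43 of the genes tested, the calls were 13 lower (1.38%) for trametinib against control, 21 higher (0.612%) for cediranib against control, 33 higher (2.23%) and 1 lower (1.65%) for the combination against control, 34 higher (1.67%) for the combination against trametinib, 7 higher (1.25%) and 1 lower (0.935%) for the combination against cediranib, 31 lower (1.78%) for trametinib against cediranib and 13 higher (0.601%) for the interaction. With DESeq2 they were 2 higher (0.0543%) for cediranib and 13 higher (2.59%) and 1 lower (2.15%) for the combination against control, 26 higher (1.96%) for the combination against trametinib, 1 lower (1.47%) for the combination against cediranib, 22 lower (2.74%) for trametinib against cediranib and 2 higher (0.178%) for the interaction. With edgeR's likelihood ratio test they were, in the same order, 5 higher (0.093%), 18 higher (2.93%) and 1 lower (2.4%), 29 higher (2.34%), 1 lower (1.64%), 28 lower (3.25%) and 2 higher (0.178%), and 7 lower (2.19%) for trametinib against control. In fits of only the groups compared there was 1 lower, Ivl (1.32%), for trametinib against control, 13 higher (2.46%) for the combination against control, 24 higher (1.87%) for the combination against trametinib, 1 lower (0.986%) for the combination against cediranib and 4 lower (1.47%) for trametinib against cediranib. The interaction needs all 12 libraries and was not run this way. The causes of these shifts were not tested.

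Leaving out each library gave 1 to 13 higher (0.846% to 2.19% of all genes) and 0 to 1 lower calls (0.871% to 2.11%) for the combination against control, 0 to 2 higher (0% to 0.142%) for the combination against trametinib, 0 to 2 higher (0.719% to 1.06%) for the combination against cediranib (Sprr2b and Sprr2i without cediranib replicate 1), 0 to 1 higher (0% to 0.0524%) for cediranib against control (Sprr1b without cediranib replicate 2), 4 to 26 lower (1.09% to 2.5%) for trametinib against cediranib and 2 lower throughout (0.978% to 1.46%) for trametinib against control. Values that changed sign were not called: Sprr1a for cediranib against control (-0.049 to 0.44) and for the interaction (-0.15 to 0.57), Ivl for cediranib against control (-0.50 to 0.97) and Sprr2h for the combination against cediranib (-0.24 to 1.56). Summed levels per treatment moved by less than the SD with library totals as the scale or without the transglutaminases.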

Other observations

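Genes of the hair follicle (inner root sheath and hair shaft, 15 of 16 listed genes in the table) were high in fewer tumors than the envelope genes. Their summed level was 795 CPM in cediranib replicate 3 and 442, 235 and 592 CPM in combination treated tumors, and at most 3.54 CPM in the other 8. Control replicate 1 and cediranib replicate 1, which held 529.9 and 2675 CPM of basal keratins and 35.0 and 59.6 CPM of LCE1, had 1.02 and 0.5995 CPM of hair follicle genes. Krt71, a keratin of the inner root sheath, was 355 CPM in cediranib replicate 3 and at most 0.0999 CPM in cediranib replicate 1 and control replicate 1. Of the 6 tumors with over 500 CPM of basal keratins, 4 thus held hair follicle transcripts at a high level beside those of the envelope, and 2 held almost none. Sebaceous gland genes, of which 3 of 8 were tested, summed to 53.9 to 129 CPM in those 4 tumors, 31.3 and 75.3 CPM in these 2 and 13.2 to 21.2 CPM in the other 6.

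Other genes of the barrier were counted from 2 lists. Of 14 barrier lipid genes 6 were tested, and the only call of edgeR's quasi-likelihood test was Abca12, a lipid transporter, lower in trametinib than in cediranib treated tumors (-6.71, SE 1.77, adjusted p = 0.0368, edgeR), where 1.97% of all genes were called lower. Of 14 proteases and inhibitors of cornification 3 were tested, and the only call of this test was the kallikrein Klk6, higher in the combination than in control (4.93, SE 1.42, adjusted p = 0.0473, edgeR), where 1.91% of all genes were called higher. The summed level of the proteases and inhibitors was 6.16 to 13.4 CPM in combination treated tumors, 7.69, 1.13 and 6.22 CPM in cediranib treated and at most 2.13 CPM in control and trametinib treated tumors.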
